A study of Mus musculus with 8 samples.

Results

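The collagen chain genes are the genes whose symbols are built as Col, a type number, the letter a and a chain number. Of the 55367 genes in the count table, 44 carried such a symbol, and 29 of them reached at least 10 counts in at least 3 of the 8 libraries and were tested among 12137 genes in all. The other 15 are listed below as low. RNA came from 1 fibroblastic reticular cell (FRC) line, which the study derived from lymph nodes of p53ER/ER C57BL/6 mice, so that every library shares this genetic background and no group stands for a second line or a primary cell. The line received RPMI conditioned by B16.F10 mouse melanoma cells (tumor-conditioned medium, TCM), RPMI conditioned by FRCs (control conditioned medium, CCM), RPMI with 15 mM lactic acid (LA), or RPMI with an equal volume of water (vehicle), all for the same length of treatment and in low serum. Poly(A) RNA was sequenced in 2 libraries per condition. The design asks how TCM changed the cells against CCM, and which of its effects LA alone also gave against vehicle.

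FRCs are the stromal cells that build the reticular network of lymph nodes, a scaffold of collagen fibers wrapped in basement membrane on which lymphocytes migrate. Each collagen molecule is a triple helix of 3 chains, which may be the same or different, so the RNA of a chain does not by itself give the amount of a collagen. Fibrillar chains form the banded fibers of the extracellular matrix (ECM). Network chains form sheets such as basement membranes, beaded chains (collagen VI) form fine filaments around cells, and FACIT chains sit on fibrils through interrupted helices. Multiplexins carry sugar chains at basement membranes, and transmembrane chains stay in the cell surface. Newly made chains are hydroxylated and folded in the endoplasmic reticulum, trimmed of their propeptides outside the cell and cross-linked by lysyl oxidases.

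Total counts ranged from 8232889 to 14107964 per library, and 3 counts, taken here as the floor of detection, equaled 0.211 to 0.354 CPM, the count scaled to a common library size. Floors cover counting error only, because no molecular identifiers were used. Among markers of the line, Pdpn had 1023 to 1845 counts and Vcam1 1190 to 2177, while Thy1, which labels FRCs in tissue, had only 1 to 16. The leukocyte genes Ptprc, Cd3e and Itgam and the lymphatic gene Prox1 were at 0 in every library, and the endothelial genes Pecam1 and Kdr had 4 to 9 and 3 to 13 counts. Cd68, a macrophage marker also found at low levels in other cells, had 2 to 22 counts, with 22 and 15 in the CCM libraries and 4 and 2 in the TCM libraries. The 5 melanocyte and melanoma markers summed to 1.53 to 1.89 CPM with TCM and to 0.954 to 1.77 CPM with CCM, most of it from Pmel. Tyr was at 0 in every library, while Tyrp1 had 6 and 3 counts and Dct 1 and 1 in the TCM libraries and both were at 0 in the other 6 libraries. The part of these transcripts in the TCM results was not tested. Replicates differed in places. Between the replicates of a condition, 5 of the 29 chains differed by over 1.5-fold with vehicle, 6 with LA, 1 with CCM and 2 with TCM. The replicates are described by the study as biological, and P values measure the spread between these libraries of 1 line.

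The promoters of 4 chains on which the results turn are shown here, each as the 250 bases before the transcription start that RefSeq places on the GRCm38.p6 assembly, and each free of annotated exon. Col3a1 was lower with both TCM and LA, Col15a1 and Col5a3 were lower with TCM, and Col11a1 was higher with TCM. Capitals mark 3 short motifs read on either strand, the CAAT-box letters CCAAT, the TATA-box letters TATAA and the GC-box letters GGGCGG.
Col3a1, chr1:45311288-45311537, plus strand: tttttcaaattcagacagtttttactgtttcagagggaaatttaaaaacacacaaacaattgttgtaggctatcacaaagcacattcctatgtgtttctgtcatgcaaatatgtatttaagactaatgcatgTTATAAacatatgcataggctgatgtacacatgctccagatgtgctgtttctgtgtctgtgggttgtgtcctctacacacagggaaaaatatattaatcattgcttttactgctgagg
Col15a1, chr4:47207762-47208011, plus strand: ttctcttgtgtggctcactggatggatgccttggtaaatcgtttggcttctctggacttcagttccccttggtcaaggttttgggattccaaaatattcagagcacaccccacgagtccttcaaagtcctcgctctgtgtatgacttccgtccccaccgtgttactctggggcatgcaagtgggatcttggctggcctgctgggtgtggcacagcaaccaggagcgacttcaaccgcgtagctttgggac
Col5a3, chr9:20815068-20815317, minus strand: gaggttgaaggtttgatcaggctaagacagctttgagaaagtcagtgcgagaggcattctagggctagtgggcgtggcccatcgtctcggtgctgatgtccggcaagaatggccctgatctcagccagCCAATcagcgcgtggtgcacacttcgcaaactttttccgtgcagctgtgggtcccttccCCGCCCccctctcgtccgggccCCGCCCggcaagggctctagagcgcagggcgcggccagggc
Col11a1, chr3:114030290-114030539, plus strand: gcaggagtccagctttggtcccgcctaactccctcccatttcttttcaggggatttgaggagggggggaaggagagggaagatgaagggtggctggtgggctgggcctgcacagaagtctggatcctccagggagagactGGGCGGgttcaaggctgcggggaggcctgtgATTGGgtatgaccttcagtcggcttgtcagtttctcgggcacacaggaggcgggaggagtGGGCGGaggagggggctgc
The Col3a1 window was AT-rich, with 35.2% G and C, and held TATAA on each strand, the matches overlapping in the capitals. Col5a3 (62.8% G and C) and Col11a1 (62.4%) each held 1 CCAAT, which began 122 and 79 bases before the start, and 2 GGGCGG. The Col15a1 window (53.6%) held none of the 3 motifs. A window was found for 23 of the 29 tested chains, with a median of 60.8% G and C against 52.4% over all 32851 promoters. GGGCGG stood in 69.6% of the 23 and in 32.7% of all promoters, CCAAT in 43.5% and 33.8%, and TATAA in 13.0% and 22.8%. The 23 are chains that passed the count filter, whereas all promoters were taken whatever their counts. Some of the 23 windows also hold annotated exon, as do all 250 bases for Col4a1 and for Col4a2. Whether the contrast is particular to collagen chains was not tested. These matches are letters in a window, and binding was not measured.

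Expressed per kilobase of exons so that genes can be compared, Col1a1, the main chain of collagen I, stood highest at a mean of 2334 CPM per kilobase over the 8 libraries. Col3a1, the only chain of collagen III, followed at 618, and Col6a1 at 474. The fibrillar Col5a1 (241) and Col5a2 (177) of collagen V, which starts fibrils, the basement membrane chains Col4a1 (188), Col4a2 (136) and Col4a5 (98.0), Col6a2 (174) and Col8a1 (83.4) made up the rest of the 10 highest. Col12a1 came next at 81.0. All annotated exons of a gene exceed its longest transcript by unequal amounts, with 15228 against 11511 bases for Col12a1 and 6718 against 6536 for Col4a5. The order of close levels, and which chains are among the 10 highest, thus depends on the length used. The level of the lowest tested chain, Col6a4, was 0.0853 CPM per kilobase.

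**Figure D1:**
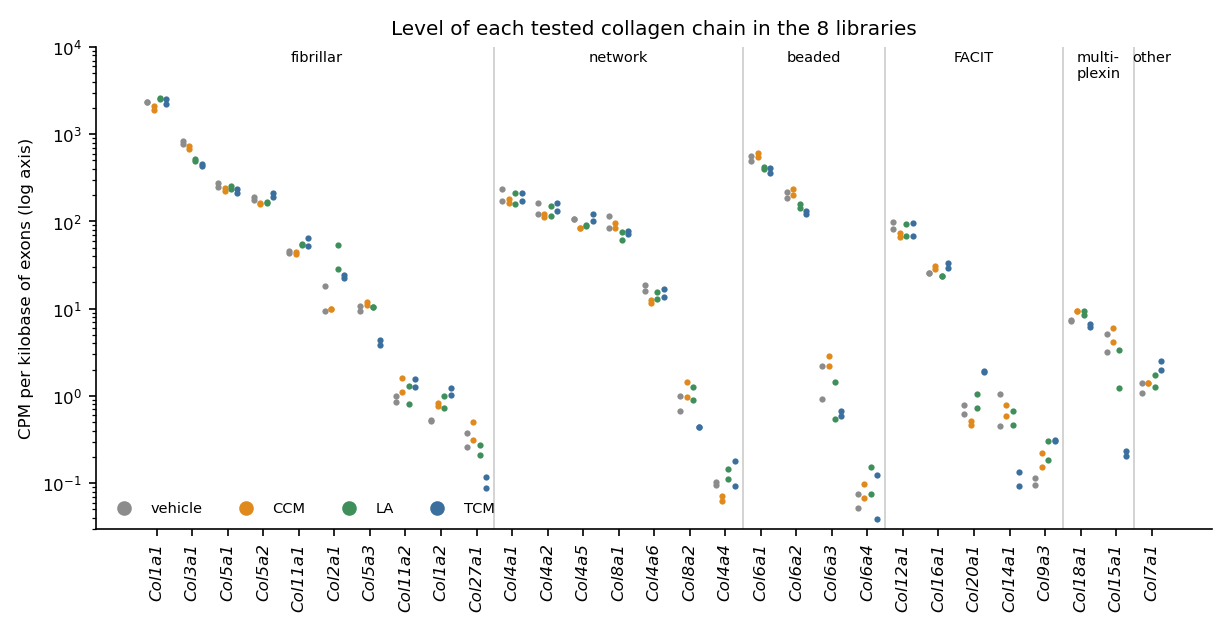
Level of each of the 29 tested collagen chains as CPM per kilobase of exons on a log axis, 1 point per library, colored by condition and grouped by class. Col1a1 lies above every other chain in all 8 libraries, and the Col15a1 points of both TCM libraries lie below those of the other 6.

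Chains that are built into 1 molecule did not always stand at like levels. Collagen I is usually made of Col1a1 with Col1a2, yet Col1a2 had only 57 to 178 counts per library where Col1a1 had 131525 to 244327. The per-length level of Col1a1 was 2678 times that of Col1a2 as a median over libraries, with a range of 2102 to 4581. The reads themselves were not used here, so a low Col1a2 RNA and a loss of its reads in alignment, annotation or counting cannot be told apart, and this holds for every Col1a2 value given. With the length of the longest transcript in place of all exons the median was 1276. Col6a3, the third chain of classical collagen VI, was likewise low, at a median of 0.00265 of the Col6a1 level (0.00135 to 0.00478). By contrast, the level of Col4a1 was 1.38 times that of Col4a2 (1.29 to 1.47), and these genes start head to head on chromosome 8, with Col4a2 at position 11312805 of the plus strand and Col4a1 at 11312826 of the minus strand (GRCm38). Their transcripts therefore overlap at the very start. Col5a1 to Col5a2 was 1.41 and Col6a1 to Col6a2 was 2.71.

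Of all counted reads, collagen chains took 3.71% and 3.95% in the controls that received water. The share was 3.64% and 3.34% in the CCM libraries, 3.44% and 3.64% in those treated with LA, and 2.90% and 3.31% in those treated with TCM. The share was lower with TCM than with CCM (3.10% ± 0.296 against 3.49% ± 0.212, SD, n = 2 each) and lower with LA than with vehicle (3.54% ± 0.138 against 3.83% ± 0.168). Neither pair of groups overlapped, and the exact 2-sided permutation test gave p = 0.333 for both, the smallest that 2 against 2 libraries allow, so the design cannot reach 0.05. CCM was also below vehicle without overlap. The separation depends on the measure. Without the 20 genes of highest count outside the chains, the TCM libraries (3.25% and 3.78%) overlapped the CCM libraries (4.01% and 3.68%). As a share of per-length levels TCM (1.36% and 1.75%) again overlapped CCM (1.87% and 1.66%), and LA (1.82% and 1.95%) overlapped vehicle (1.88% and 2.04%).
Within the collagen reads, the make-up shifted between Col1a1 and Col3a1. Col1a1 held 40.8% ± 2.16 of the collagen reads with vehicle and 48.5% ± 1.32 with LA, and 39.3% ± 0.392 with CCM and 47.5% ± 0.243 with TCM (SD, n = 2 each). Col3a1 went from 20.9% ± 0.138 with vehicle to 14.4% ± 0.194 with LA, and from 20.7% ± 0.287 with CCM to 13.2% ± 0.943 with TCM. Beaded chains held 12.9% ± 0.232 with CCM and 8.27% ± 0.0872 with TCM. A share of a whole rises where another part falls, so the tests of single genes below carry the direction.

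**Figure D2:**
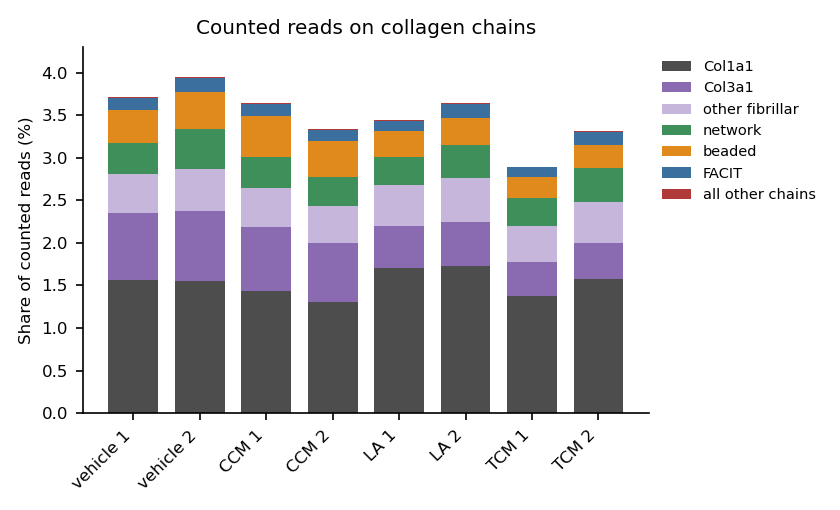
Share of all counted reads (%) on collagen chains in each of the 8 libraries, stacked by Col1a1, Col3a1, the other fibrillar chains and the other classes. The stacks range from 2.90% in TCM replicate 1 to 3.95% in vehicle replicate 2, and the Col3a1 band is narrower in the LA and TCM libraries than in the vehicle and CCM libraries.

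TCM changed many collagen chains in both directions. A chain was called when edgeR's quasi-likelihood test gave a Benjamini-Hochberg adjusted P value under 0.05 over all 12137 genes and a log2 fold change (FC) beyond 0.39. Against CCM, 14 of the 29 tested chains were called, where 19.1% of all tested genes were. Lower were 10 chains, with a background of 10.2% for that direction, and higher were 4, with a background of 8.83%. The median log2 FC of the 29 was 0.08 against 0.00 for all genes, so the chains as a group did not sit to 1 side. By class, the called chains were 5 of 10 tested fibrillar chains (2 higher, 3 lower), 3 of 4 beaded (all lower), 1 of 7 network (lower), 2 of 5 FACIT (1 higher, 1 lower), both multiplexins (lower) and Col7a1.

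**Figure D3:**
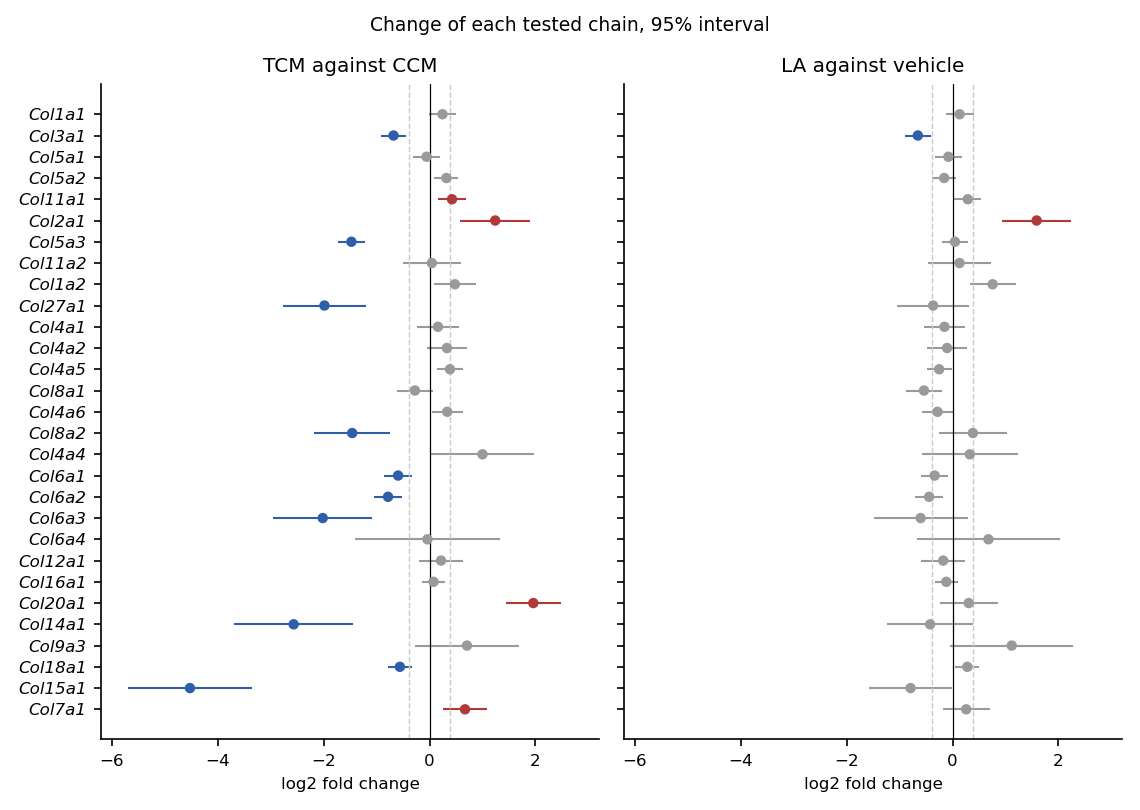
Log2 FC of each tested chain with its 95% interval for TCM against CCM (left) and LA against vehicle (right), ordered by class as in the plot of levels, with dashed lines at 0.39 in either direction. Red marks chains called higher, blue chains called lower and gray chains not called. TCM moved 4 chains up and 10 down, and LA moved Col2a1 up and Col3a1 down.

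The fibrillar chains did not move together with TCM. Col1a1 measured 13981 and 12554 CPM with CCM and 14619 and 16827 CPM with TCM, a log2 FC of 0.24 ± 0.12 (SE) with an adjusted P of 0.173 by edgeR and a 95% interval from -0.02 to 0.51. It was not called. Its low partner Col1a2, at 9.60 and 10.4 CPM with CCM and 12.7 and 15.2 CPM with TCM, was not called either (log2 FC 0.48 ± 0.18, adjusted P = 0.0861).
Col3a1, whose collagen III forms the reticular fibers of lymphoid tissue, stood at 7248 and 6732 CPM with CCM and at 4296 and 4438 CPM with TCM. Both TCM libraries lay well below both CCM libraries, and Col3a1 fell by 0.68 on the log2 scale (SE 0.11, adjusted P = 0.00133). Its exons overlap those of Gm47302 on the same strand, so reads there could have been counted for either.
Col5a3, a minor chain of collagen V, went from 80.4 and 74.7 CPM to 26.4 and 29.4 CPM, and fell by 1.47 on the log2 scale (SE 0.11, adjusted P = 2.08e-05). Its major partners did not follow it. The log2 FC was -0.06 for Col5a1 and 0.32 for Col5a2, and neither was called.
Col27a1, a fibrillar chain best known from cartilage, was low throughout and lower with TCM, at 6.48 and 4.10 CPM against 1.16 and 1.53 CPM (log2 FC -1.98 ± 0.36, adjusted P = 0.00263). Col2a1, the main cartilage collagen chain, rose from 90.8 and 91.4 CPM to 206 and 225 CPM (log2 FC 1.24 ± 0.30, adjusted P = 0.0133). The call for Col2a1 ended without any 1 of the CCM or TCM libraries, with adjusted P up to 0.263, and with no filter on low counts (0.269). Col11a1, which joins collagen II and collagen V fibrils, was at 569 and 541 CPM with CCM and 662 and 828 CPM with TCM (log2 FC 0.42 ± 0.12, adjusted P = 0.0246). That call ended without CCM replicate 1 (adjusted P = 0.118) or CCM replicate 2 (0.172), and without TCM replicate 2 the log2 FC was 0.25. It also ended with only the libraries compared in the fit, and without TMM factors, which moved the median of all genes by -0.14. Col11a2 showed no call, at a log2 FC of 0.04.

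Of the 4 tested beaded chains, 3 fell with TCM. Col6a1 fell from 2651 and 2394 CPM to 1564 and 1780 CPM (log2 FC -0.59 ± 0.12, adjusted P = 0.00489), although the call ended without CCM replicate 1 (adjusted P = 0.0717). Col6a2 fell from 1941 and 1687 CPM to 1001 and 1108 CPM (log2 FC -0.78 ± 0.12, adjusted P = 0.00114). Col6a3 went from 34.6 and 26.4 CPM to 7.05 and 8.07 CPM (log2 FC -2.02 ± 0.43, adjusted P = 0.00674). For all 3 the TCM libraries lay below the CCM libraries. The Col6a3 call ended without TCM replicate 1 (adjusted P = 0.254) or TCM replicate 2 (0.201), and with no filter on low counts. Col6a4, with 3 to 11 counts, was not called.

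The basement membrane chains of collagen IV did not fall with the others. Col4a1 (log2 FC 0.16), Col4a2 (0.33), Col4a5 (0.39) and Col4a6 (0.33) all had estimates above 0 with TCM, and none was called. Col4a5 was nearest, at 571 and 566 CPM with CCM and 676 and 811 CPM with TCM, where the adjusted P of 0.0269 passed but the log2 FC lay just inside the fold threshold. For CCM against vehicle the estimates of these chains lay below 0, at -0.25 for Col4a1, -0.30 for Col4a2, -0.34 for Col4a5 and -0.53 for Col4a6. None of them was called by edgeR. Mean CPM of Col4a5 was 719 with vehicle, 569 with CCM and 744 with TCM. In collagen VIII, the short-chain network collagen of vessel walls and cornea, Col8a2 fell from 6.48 and 4.39 CPM to 2.00 and 1.96 CPM (log2 FC -1.46 ± 0.32, adjusted P = 0.00865), and without CCM replicate 1 the adjusted P was 0.0921. Its abundant partner Col8a1 had a log2 FC of -0.27 and was not called.

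Both multiplexins fell with TCM, and Col15a1 more than any other tested chain. Col15a1, a basement membrane collagen, counted 454 and 274 reads with CCM and 14 and 12 with TCM, or 38.2 and 26.2 CPM against 1.47 and 1.31 CPM. Its log2 FC was -4.52 ± 0.53 (adjusted P = 0.000182). When 1 TCM library was left out the log2 FC stayed near this value (-4.62 or -4.44), but the adjusted P was 0.0873 without replicate 1 and 0.0751 without replicate 2. Its exons overlap those of Gm12426 on the opposite strand. Col18a1, the parent of endostatin, was at 66.3 and 65.6 CPM with CCM and 43.2 and 46.3 CPM with TCM (log2 FC -0.56 ± 0.10, adjusted P = 0.00294).
The FACIT chains split. Col14a1, which binds fibril surfaces, had 65 and 43 counts with CCM and 9 and 6 with TCM (log2 FC -2.57 ± 0.51, adjusted P = 0.00484). Col20a1 had 28 in each CCM library and 94 and 89 counts with TCM, or 2.36 and 2.67 CPM against 9.89 and 9.70 CPM (log2 FC 1.96 ± 0.24, adjusted P = 0.000217), and overlaps BX649560.1 on the same strand. The abundant Col12a1 (log2 FC 0.22) and Col16a1 (0.08) were not called. Col9a3 had 4 to 11 counts, passed the filter only through LA and TCM libraries, and was not called.
Col7a1, which forms the anchoring fibrils beneath epithelia, was at 14.4 CPM in both CCM libraries and at 25.6 and 20.3 CPM with TCM (log2 FC 0.67 ± 0.19, adjusted P = 0.0276). Leaving out either CCM library (adjusted P = 0.136 and 0.121) or TCM replicate 1 (0.110), or using no TMM factors, ended this call. Of the 14 calls for TCM, 7 held in every fit that left out 1 library, namely Col3a1, Col5a3, Col6a2, Col14a1, Col18a1, Col20a1 and Col27a1.

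LA at 15 mM changed 2 of the 29 tested chains against vehicle, both fibrillar, where 2.55% of all tested genes were called (1.31% higher and 1.24% lower). The median log2 FC of the chains was -0.10 against 0.00 for all genes. Col2a1 was at 87.1 and 168 CPM with vehicle and at 265 and 502 CPM with LA. The groups did not overlap, LA being the higher, yet the replicates of each condition were apart by 1.90-fold with LA and 1.92-fold with vehicle. Replicate 2 was the higher in both conditions, so LA was above vehicle at each replicate number. The replicates share only a number and were treated as unpaired. The log2 FC was 1.59 ± 0.30 (adjusted P = 0.0211), and it was 1.20 without vehicle replicate 1 (adjusted P = 0.148) and 1.05 without LA replicate 2 (0.130). The call also ended without TCM replicate 1 (0.237) or replicate 2 (0.238), which enter the fit through the shared spread, with no filter on low counts (0.391), and with only the vehicle and LA libraries in the fit (0.328).
Col3a1 was at 7622 and 8152 CPM with vehicle and at 4862 and 5150 CPM with LA, with close replicates. It fell by 0.66 on the log2 scale (SE 0.11, adjusted P = 0.0126). With any 1 of these 4 libraries left out the log2 FC stayed between -0.70 and -0.61 and the adjusted P rose to between 0.0723 and 0.137.
Col1a1 was at 15385 and 15408 CPM with vehicle and at 16569 and 17214 CPM with LA. The groups did not overlap, but the log2 FC of 0.13 ± 0.12 was not called (adjusted P = 0.711, 95% interval -0.13 to 0.40). Col1a2 was at 6.36 and 6.65 CPM with vehicle and 9.10 and 12.5 CPM with LA, with a log2 FC of 0.76 ± 0.20 and an adjusted P of 0.0767. Estimates for Col6a1 (-0.34), Col6a2 (-0.44) and Col8a1 (-0.54) were below 0 and not called. Col6a3 was at 11.2 and 26.3 CPM with vehicle and 6.50 and 17.3 CPM with LA, so its groups overlapped, as did those of Col15a1 (20.3 and 33.0 CPM against 7.92 and 21.6 CPM). At each replicate number LA was below vehicle for both chains, and neither was called with the replicates treated as unpaired.
For the 27 chains not called, the 95% interval reached a median of 0.39 log2 units to either side of the estimate, and 10 of the 29 chains had an unadjusted P under 0.05. The share of all genes at that level was not counted, here or for the unadjusted P values given below. These intervals are not adjusted over all genes, and estimates beyond 0.39 also went uncalled, such as Col1a2 (0.76) and Col8a1 (-0.54). Changes of this size and larger could thus be missed with 2 libraries per condition.

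**Figure D4:**
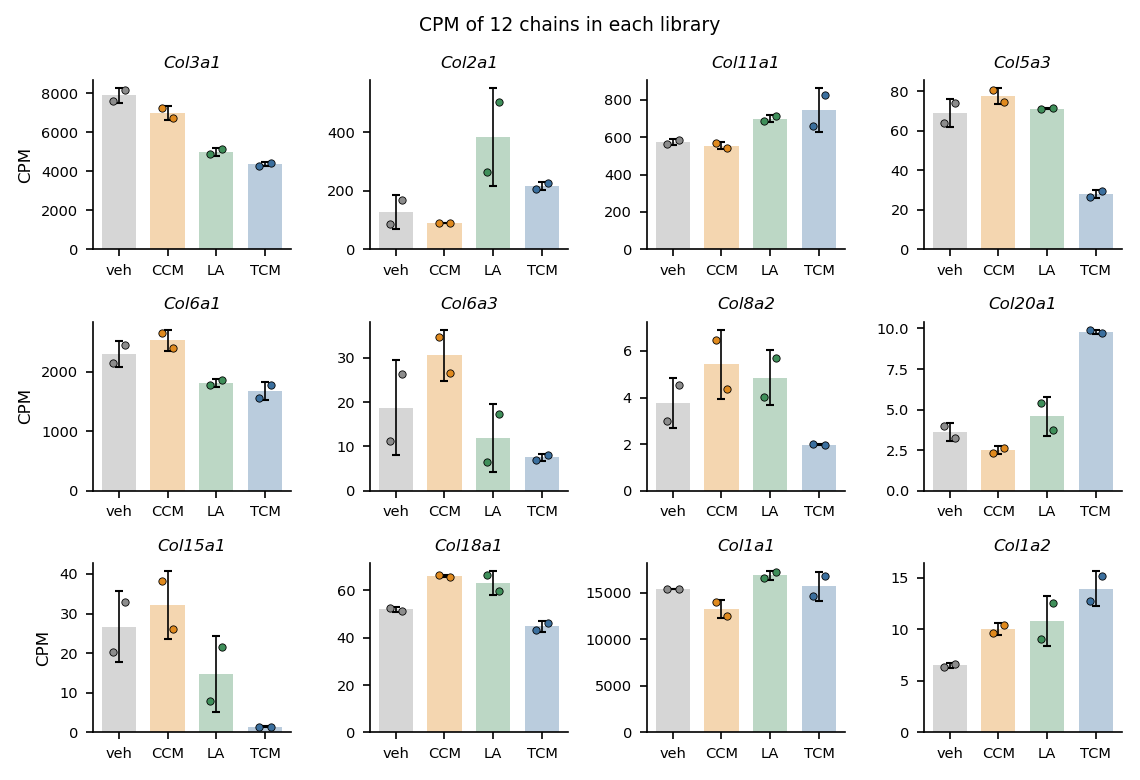
CPM of 12 chains in each of the 8 libraries (points), with bars at the mean of each condition and error lines of 1 SD (n = 2), every axis starting at 0. Col3a1 is lower in both LA and TCM libraries, Col15a1 and Col5a3 are lowest in the TCM libraries, and Col2a1 and Col15a1 differ between LA replicates.

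Whether the effects of TCM and LA differ was tested directly, as the TCM effect against CCM minus the LA effect against vehicle. Of the 29 chains, 6 were called, with 10.4% of all tested genes called (4.45% higher, 6.00% lower). TCM had the lower effect in 4 chains: Col15a1 (-3.73 ± 0.68, adjusted P = 0.00506), Col8a2 (-1.84 ± 0.44, 0.0207), Col5a3 (-1.52 ± 0.16, 0.000146) and Col18a1 (-0.84 ± 0.14, 0.00356), as log2 differences by edgeR. Col20a1 (1.65 ± 0.35, 0.0120) and Col4a5 (0.64 ± 0.15, 0.0221) had a higher one. The differences for Col5a3 and Col18a1 held in every fit that left out 1 library, and those for the other 4 did not. Col5a3 shows the contrast plainly, since it was at 63.9 and 74.0 CPM with vehicle and at 71.0 and 71.5 CPM with LA. For Col3a1 (-0.02 ± 0.15) and Col2a1 (-0.35 ± 0.42) no difference between the effects was called. Both were called in the same direction for TCM and for LA. A call for TCM without one for LA was made for 12 chains, and 0 went the other way round. With TCM 19.1% of the 12137 tested genes passed and with LA 2.55%, so this imbalance was not limited to collagen chains. Whether its size is particular to them was not tested. A missing LA call does not show that LA left a chain as it was.

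The controls were compared as background. Between CCM and vehicle, edgeR called 0 of the 29 chains, against 1.30% of all tested genes (0.898% higher and 0.404% lower). An unadjusted P under 0.05 was reached by 5 chains, and DESeq2 called 1. Some estimates between the controls were nevertheless as large as those between a treatment and its control. Col1a2 had a log2 FC of 0.62 and Col6a3 of 0.69 for CCM against vehicle, while Col1a1 had -0.21 and Col4a6 had -0.53. CCM enters both this comparison and the TCM comparison, and vehicle both this and the LA comparison.

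Genes that act on collagen chains were read from a list of 44, of which 40 were tested. Against CCM, TCM raised 6 of them and lowered 3, with a median log2 FC of 0.05. The 9 called genes were 22.5% of those tested, near the 19.1% of all tested genes (8.83% higher and 10.2% lower). Of 14 tested genes of hydroxylation and glycosylation 4 were called, all higher. P4ha1 and P4ha2 are catalytic subunits of prolyl 4-hydroxylase, which stabilizes the triple helix. P4ha1 went from 506 and 494 CPM to 861 and 801 CPM (log2 FC 0.73 ± 0.10, adjusted P = 0.000334), and P4ha2 from 103 in each library to 178 and 172 CPM (0.76 ± 0.09, 0.000159). P4ha3, another such subunit, had a log2 FC of 0.45 ± 0.14 (0.0414), but its call ended without TMM factors (0.113). Without TCM replicate 2 the log2 FC of P4ha3 was 0.29. Plod3, a lysyl hydroxylase, went from 128 and 130 CPM to 188 and 198 CPM (0.58 ± 0.09, 0.000724).
Lox, the lysyl oxidase that cross-links fibers, rose from 2048 and 2008 CPM to 4121 and 4766 CPM (log2 FC 1.13 ± 0.11, adjusted P = 6.33e-05). It was the only called gene of 5 cross-linking enzymes. Among receptors, Itga11, the integrin chain that binds fibrillar collagen on fibroblasts, rose from 103 and 76.6 CPM to 163 and 216 CPM (1.07 ± 0.16, 0.000747), whereas the receptor kinase Ddr2 fell from 24.8 and 21.8 CPM to 11.1 and 16.8 CPM (-0.75 ± 0.18, 0.0115). Without CCM replicate 1 the Ddr2 call ended.
Of the 6 tested genes of propeptide removal 2 were called, both lower. Bmp1, the protease that cuts the C-terminal propeptide of fibrillar procollagens, fell from 257 and 235 CPM to 144 and 145 CPM (log2 FC -0.77 ± 0.09, adjusted P = 0.000190). Pcolce2, an enhancer of that cleavage, fell from 26.4 and 27.0 CPM to 12.1 and 7.41 CPM (-1.45 ± 0.19, 0.000324). The other 4 were not called, and Tll1, a relative of Bmp1, had an estimate above 0 (0.60, adjusted P = 0.0594). None of the 9 genes of folding and export was called with TCM, 1 of them at an unadjusted P under 0.05. That gene was Creb3l1, with a log2 FC of -0.32 and an adjusted P of 0.0514 by edgeR. Its log2 FC for CCM against vehicle was -0.37, not called by edgeR.
With LA, 1 of the 40 genes was called, a share of 2.5% that lies at the background of 2.55%. Creb3l1, a membrane-bound transcription factor of secretory cells known to act on collagen genes, went from 71.6 and 68.8 CPM with vehicle to 43.7 and 46.6 CPM with LA (log2 FC -0.63 ± 0.10, adjusted P = 0.0105), and the call ended without any 1 of these 4 libraries. Of the 40 genes, 8 had effects of TCM and LA that differed by the direct test, 5 higher and 3 lower with TCM, where 10.4% of all tested genes differed (4.45% higher and 6.00% lower), and Lox, P4ha1 and P4ha2 among them held without any 1 library. No partner gene was called between CCM and vehicle by edgeR, 7 had an unadjusted P under 0.05, and DESeq2 called 1.

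**Figure D5:**
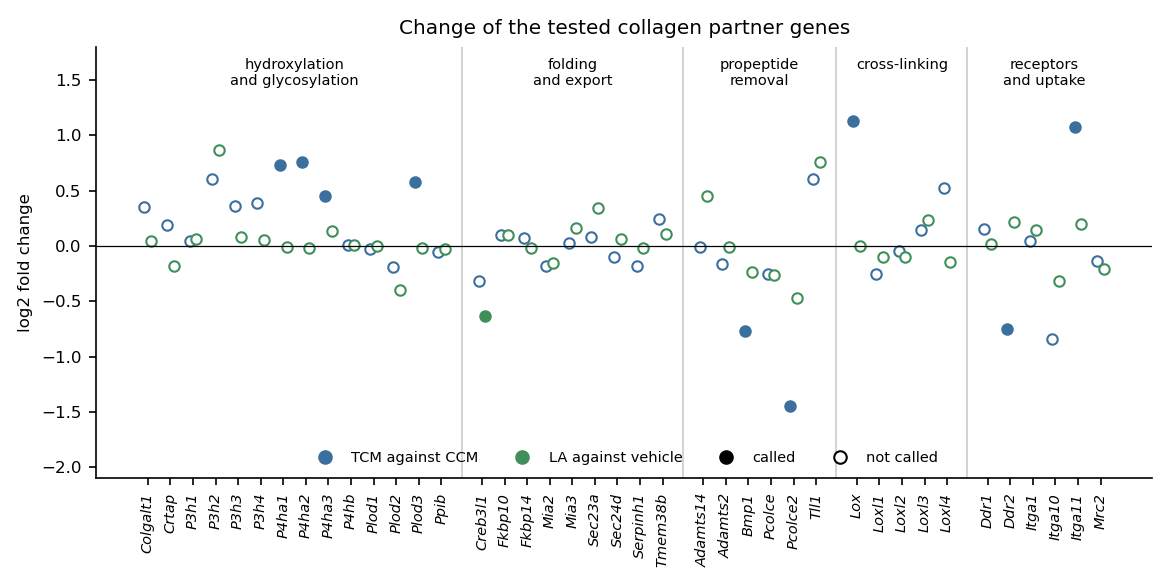
Log2 FC of the 40 tested genes that act on collagen chains for TCM against CCM (blue) and LA against vehicle (green), grouped by role, with filled points for called genes. Lox and Itga11 lie above 1 with TCM, Pcolce2 lies lowest, and Creb3l1 is the only filled green point.

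Because Col2a1 is known from cartilage, chondrocyte markers were read beside it. Of 8 markers, Acan, Matn1, Chad and Snorc were at 0 in every library, Comp had 2 to 9 counts and Hapln1 at most 1. Sox9, a transcription factor of cartilage and other tissues, had 827 to 2526 counts. Sox9 was at 136 and 134 CPM with CCM and 87.0 and 93.4 CPM with TCM, and fell by 0.58 on the log2 scale (SE 0.11, adjusted P = 0.00351) where Col2a1 rose. With LA it was at 219 and 178 CPM against 145 and 148 CPM with vehicle, and was not called (log2 FC 0.43 ± 0.11, adjusted P = 0.0643 by edgeR). The summed level of the 8 markers was almost all Sox9, for example 87.5 and 94.0 CPM with TCM. Markers of the line itself also moved with TCM, with Pdpn higher (log2 FC 0.44) and Pdgfrb lower (-0.47), both called. The part of these shifts in the collagen results was not tested.

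The 15 low chains were read from their counts only. In the FACIT class Col9a1, Col9a2, Col19a1 and Col22a1 were low, and Col9a2 reached 5 and 12 counts with LA where the vehicle libraries had 2 and 0, both CCM libraries 0 and each TCM library 1. Col6a5 and Col6a6 of the beaded class were low, with Col6a5 at 6 and 13 counts with vehicle, 2 and 4 with CCM, 1 and 0 with LA and 0 with TCM. Col10a1 and Col4a3 of the network class and Col24a1 of the fibrillar class had at most 5 counts in a library. All 4 transmembrane chains, Col13a1, Col17a1, Col23a1 and Col25a1, were low, with a highest count of 11, and so were Col26a1 and Col28a1. Col19a1, Col22a1 and Col26a1 were at 0 in every library. Most of these counts lie at or near the floor of 3 counts, and no difference is drawn from them.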

How the data were processed

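Poly(A) RNA of 1 mouse FRC line was sequenced in 8 directional libraries, 2 for each of 4 conditions, taken from the labels. The authors deposited whole-number counts per gene, made, per the submitters' processing notes and the paper, with STAR 2.7.0a, featureCounts of Subread 2.0.1 and GRCm38, and tested them with DESeq2 1.32.0. Whether reads were counted by strand is not given in the sources used here, so genes that overlap another are uncertain. A second deposited table, named as normalized, holds the same counts (100% of values) for 12137 genes and was not tested apart. No value column was left unused (0).

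Counts were tested in R 4.3.3 with edgeR 4.0.16 (TMM factors, glmQLFit and glmQLFTest, robust), a mean per condition and all 8 libraries, for genes that reached a minimum of 10 counts in 3 or more libraries. P values were adjusted by Benjamini-Hochberg over all genes tested, and called under 0.05 with a log2 FC beyond 0.39. The biological coefficient of variation was 0.0903. CPM (counts relative to the TMM-scaled library total) were computed from the counts, and lengths come from GENCODE M21 on GRCm38. The code was tested on simulated data. The members, classes and lists were chosen with earlier results of these data known. Chains are named with values if called, if among the 10 highest per length, or if a partner chain of a called one, and partner genes if called, at most 5 per direction and comparison, with P4ha3 added. Same-numbered replicates were checked for pairing by correlating their deviations from the condition means, which gave 0.353 for vehicle with LA and -0.242 for CCM with TCM. They were treated as unpaired. Alternatives were other scaling, DESeq2 1.42.0, other filters and fold thresholds, only the libraries compared, a replicate block and leaving out each library.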

Additional observations from a re-analysis of the deposited data

Results flagged for a closer look

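In 6 chains the effect of TCM against CCM differed from the effect of LA against vehicle by the direct test of the difference in edgeR. The TCM effect was lower on the log2 scale by -3.73 for Col15a1 (adjusted P = 0.00506), -1.84 for Col8a2 (0.0207), -1.52 for Col5a3 (0.000146) and -0.84 for Col18a1 (0.00356). It was higher by 1.65 for Col20a1 (0.0120) and by 0.64 for Col4a5 (0.0221). Col4a5 was called in neither comparison alone, with a log2 FC of 0.39 with TCM and -0.25 with LA. Its log2 FC for CCM against vehicle was -0.34, which was not called by edgeR. Leaving out 1 library ended the call for Col15a1 (adjusted P = 0.228 without TCM replicate 1 and 0.185 without replicate 2), for Col8a2 (up to 0.110), for Col20a1 (up to 0.0644) and for Col4a5 (up to 0.107). The call for Col15a1 also ended with no filter on low counts (0.205), and that for Col4a5 with no TMM factors (0.0627).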

How the results depend on the processing

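For single chains and partner genes that the text names, 665 values kept their side of the threshold and 118 did not, and no fold change among them changed sign. Leaving out 1 library at a time, the number of chains called ran from 9 to 15 for TCM, 0 to 3 for LA, 3 to 7 for the difference of the effects and 0 to 1 for CCM against vehicle. The number of partner genes ran from 7 to 11, 0 to 4, 3 to 9 and 0 to 2. A condition left with 1 library was assumed to vary like the others. The share of all genes called also moved between these fits, so the moves in the counts were not limited to collagen chains or partner genes. The lowest chain count for TCM, 9, came without CCM replicate 1, where 9.85% of all genes were called. DESeq2 called 4 chains for LA, and 1 chain and 1 partner gene for CCM against vehicle. Of all genes it called 2.74% and 1.95% in these comparisons. With no filter on low counts, 5 chains and 5 partner genes were called for LA, and 2 chains and 3 partner genes for CCM against vehicle. The shares of all genes were 2.82% and 2.51%. With only the libraries compared in the fit, 2 partner genes were called for LA, and 2 chains and 4 partner genes for CCM against vehicle. There 3.74% and 5.59% of all genes were called. A fold threshold of 0.68 left 9 chains for TCM, 1 chain and 0 partner genes for LA, with 11.0% of all genes called for TCM and 1.45% for LA. A threshold of 1 left 8 chains and 3 partner genes for TCM, 1 chain and 0 partner genes for LA, and 1 partner gene for the difference. It left 6.26%, 0.709% and 5.22% of all genes in these comparisons. With a replicate block, 14 chains were called for TCM, 3 for LA, 7 for the difference and 0 for CCM against vehicle. In the same order, 19.5%, 2.93%, 10.8% and 1.59% of all genes were called. The replicates share only a number, and the block moved the count of LA chains from 2 to 3 and of the difference from 6 to 7. A replicate block in which the CCM replicates were swapped was an alternative chosen after seeing the data. It gave 6 chains and 5 partner genes for LA, 12 chains for the difference, and 1 chain and 2 partner genes for CCM against vehicle. The share of all genes called rose as well, to 4.91% for LA and 3.77% for CCM against vehicle. For the difference it was also higher than in the main fit, so these rises were not limited to collagen. Collagen's share of counted reads was 4.25%, 3.84%, 3.95% and 3.52% for vehicle, CCM, LA and TCM without the 20 genes of highest count outside the chains, and 1.96%, 1.76%, 1.88% and 1.56% as per-length levels. Without 1 library it was 3.71 to 3.95%, 3.34 to 3.64%, 3.44 to 3.64% and 2.90 to 3.31%. With the longest transcript as length the ratio was 1276 for Col1a1 to Col1a2, 1.52 for Col4a1 to Col4a2, 0.986 for Col5a1 to Col5a2 and 1.71 for Col6a1 to Col6a2, so the order of Col5a1 and Col5a2 depends on the length used. Scaling without TMM factors moved the median of all genes by -0.14 for TCM. The causes were not tested.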
